A study of Arabidopsis thaliana with 9 samples.

Results

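The loci described here had far more transcript in the oscillation zone of potent and of arf7 roots than in that of control roots. They were chosen from the deposited expression table of 31124 loci by 3 conditions: a control value above 0, at least 20 FPKM in each mutant, and a log2((mutant + 1)/(control + 1)) of at least 2 in each mutant. FPKM counts sequenced fragments, scaled by the length of the transcript and by the library's total of mapped fragments. The conditions were met by 202 loci, which are called members below. They are 3.88% of the 5210 loci that had a control value above 0 and at least 20 FPKM in both mutants, called eligible loci below. The FPKM values of all 3 genotypes chose the members, so the members' levels and ratios are given as a description, with no test.

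The oscillation zone is the stretch of the root behind the tip where the auxin response rises and falls periodically and where the positions of future lateral roots are set. The series holds 3 independent samples each of potent, a line altered in the Aux/IAA protein IAA18 (iaa18/potent), of arf7, whose altered gene encodes the auxin response factor ARF7, and of a Col0 wild type control, 9 samples in all. All were hand-dissected from roots at 7 dpi after growth in 16 h light and 8 h dark, with the reporter of auxin response DR5::Luciferase followed. The control zones were taken at the minimum of the reporter's oscillation; the labels give neither phase nor ecotype for the mutants, and genotype therefore cannot be told apart from phase. The deposited table holds 1 value per locus and genotype. The spread between samples and the sequencing depth are therefore unknown, and no value below carries an error. Whole dissected zones were sequenced, so a low value from fewer cells of a type and a low value from less RNA per cell cannot be told apart.

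Auxin acts in this zone through degradation of Aux/IAA repressors, which frees ARF transcription factors such as ARF7 to activate their targets. Among the best known of these in lateral root founder cells is LBD16. Further from the tip, in the differentiation zone, hairs grow from epidermal cells, and xylem vessels build thick lignified walls and then die. The labels do not say how far along the root each dissected piece reached. As a check of the labels, ARF7 (NPH4, AT5G20730) had 9.35 FPKM in potent and 2.64 FPKM in arf7, against 12.0 FPKM in the control, and was lowest in the line labelled arf7. IAA18 (AT1G51950) had 21.8 FPKM in potent and 19.1 FPKM in arf7, against 10.6 FPKM in the control. A level of IAA18 mRNA says nothing of an altered protein.

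Across the members, the median level was 73.6 FPKM in potent and 51.7 FPKM in arf7, against 6.99 FPKM in the control. Control values ran from 0.403 to 1143 FPKM: 73 members were below 5 FPKM in the control, 8 were below 1 FPKM, and 20 were at 50 FPKM or more. The plain ratio of potent to control had a median of 9.77 and ran from 4.14 to 303. The plain ratio of arf7 to control had a median of 6.70 and ran from 4.11 to 74.9. On the log2 scale with 1 FPKM added, the members' medians were 3.13 in potent and 2.60 in arf7, beside 0.04 in potent and 0.07 in arf7 over all eligible loci. Both mutants are set against the same control values, so a control value that is low raises both ratios of that locus. Together the members made up 5.75% of the summed FPKM of the table in potent and 3.15% in arf7, against 0.528% in the control; without the metallothionein gene MT1A these shares were 4.19% in potent and 2.51% in arf7, against 0.402% in the control.

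**Figure D1:**
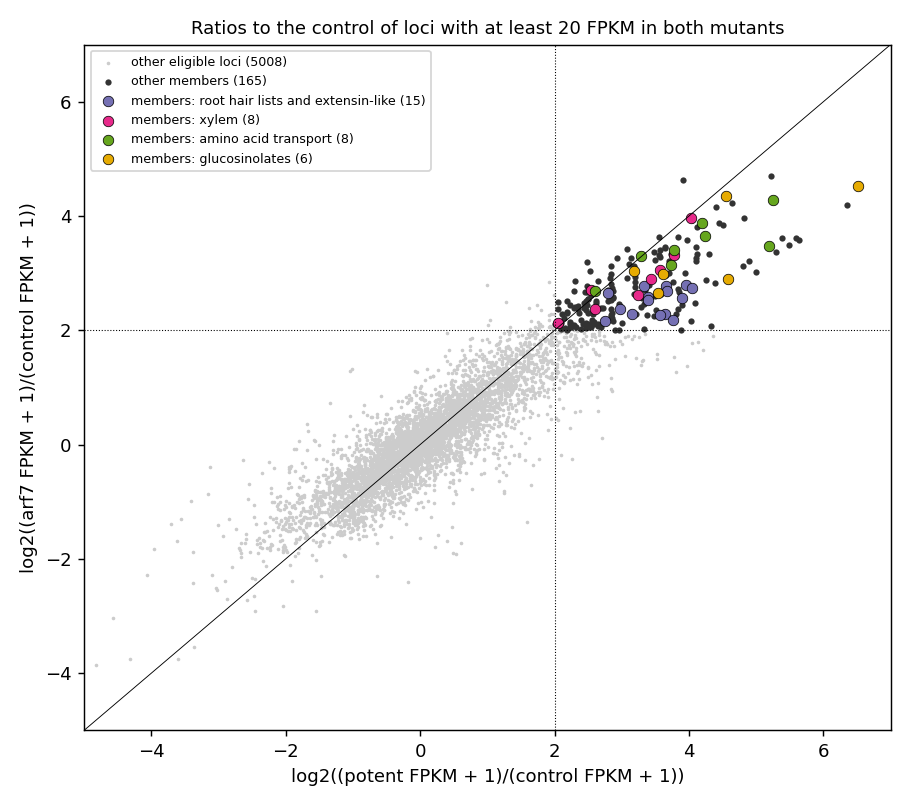
Log2 ratio of arf7 to control (vertical axis) against log2 ratio of potent to control (horizontal axis) for the 5210 eligible loci, each with 1 FPKM added to both values. Dotted lines mark the log2 ratio of 2 that chose the 202 members, the solid line marks equal ratios, and both axes contain the same control values; 160 members lie on the potent side of the solid line.

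The authors' deposited table of their own comparisons lists a locus as higher or lower in a mutant than in the control, with a q-value. It lists 3.44% of the 21486 loci above 0 in potent or the control as higher in potent, and 2.02% of the 21771 loci above 0 in arf7 or the control as higher in arf7. As higher in both mutants it lists 1.3% of the 22315 loci above 0 in any genotype. Among eligible loci the shares in the authors' deposited table are 8.12% for potent, 5.66% for arf7 and 4.3% for both mutants. Of the 202 members, the authors' deposited table lists 99 (49%) as higher in both mutants, 21 in potent alone, 7 in arf7 alone and 75 (37.1%) in neither; it lists no member as lower. The members' q-values in the authors' deposited table lie between 0.0014474 and 0.00944969. This is the contrast that chose the members, so nothing is read from these counts. Below, "rose" is used of a gene that the authors' deposited table lists as higher in both mutants, and every other gene is given by its values.

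The 75 members in neither list had a median control level of 4.15 FPKM, beside 12.0 FPKM for the 99 listed in both mutants, and a median gene length of 1177 bases, beside 1910 bases. An annotated gene overlapped 32 of the unlisted members (42.7%) and 15 of the members listed in both mutants (15.2%), while 32.8% of nuclear eligible loci had such an overlap. The library protocol does not mark strand, and 49 of the 51 overlapped members had their partner on the opposite strand. For these 51 members, reads in the stretch shared with the partner cannot be assigned to either gene. The length of that stretch was not measured. The part of level, length and overlap in the authors' listing was not tested.

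By the smaller of its 2 log2 ratios, with 1 FPKM added, AT5G10580 stood first among the members. It encodes a protein of unknown function with a DUF599 domain and rose to 131 FPKM in potent and 91.2 FPKM in arf7, against 2.55 FPKM in the control, and its smaller log2 ratio was 4.70. An annotated gene, AT5G10590, overlaps it on the opposite strand. Of the other 9 members with the largest smaller ratios, 7 are described with their groups below, and GSTF6 and AT1G63310 belong to none of these groups. GSTF6, a glutathione S-transferase with a near-identical relative that may share its reads, had 40.3 FPKM in potent and 30.0 FPKM in arf7, against 0.658 FPKM in the control. AT1G63310, an uncharacterised protein, had 28.1 FPKM in potent and 25.8 FPKM in arf7, against 0.761 FPKM in the control. Neither GSTF6 nor AT1G63310 is in the authors' deposited table.

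Genes of root hair growth included some of the most abundant members. Root hairs are tubular outgrowths of epidermal cells that lengthen at the tip, and their wall is laid down with extensins, arabinogalactan proteins, expansins and enzymes that cut and rejoin xyloglucan. Of a list of 21 root hair genes above 0, 7 were members, and the authors' deposited table lists all 7 as higher in both mutants. XTH14, a xyloglucan endotransglucosylase, rose to 1324 FPKM in potent and 589 FPKM in arf7, against 84.6 FPKM in the control. AGP3, an arabinogalactan protein, rose to 1924 FPKM in potent and 779 FPKM in arf7, against 161 FPKM in the control. PRP3, a proline-rich wall protein, rose to 1120 FPKM in potent and 433 FPKM in arf7, against 88.5 FPKM in the control. These 3 genes had potent above arf7 by 2.25-fold to 2.59-fold.

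The other 4 of the list spanned a wall-loosening protein, a lipid transfer protein of the Sec14 kind, a proton pump and an extensin. EXPA18, an expansin of root hairs, rose to 430 FPKM in potent and 282 FPKM in arf7, against 53.6 FPKM in the control. COW1, a phosphatidylinositol transfer protein needed for hair tip growth, rose to 109 FPKM in potent and 99.2 FPKM in arf7, against 14.9 FPKM in the control. Of the 7, it had the smallest gap between potent and arf7. The plasma membrane proton pump AHA7 (HA7) rose to 45.1 FPKM in potent and 29.6 FPKM in arf7, against 5.84 FPKM in the control, and the extensin EXT12 to 276 FPKM in potent and 92.3 FPKM in arf7, against 19.5 FPKM in the control.

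Not every gene of the root hair list was higher. By the authors' deposited table, 12 of the 21 genes are higher and 2 lower in potent, and 10 are higher and none lower in arf7; the list's median log2 ratio was 2.31 in potent and 1.46 in arf7, beside 0.00 in each mutant over all loci above 0. The 2 genes that fell in potent, by the authors' deposited table, were RHD6, a transcription factor that starts hair formation, and RHD4, a phosphoinositide phosphatase. RHD6 had 6.29 FPKM in potent and 10.9 FPKM in arf7, against 32.2 FPKM in the control. RHD4 had 31.9 FPKM in potent and 46.1 FPKM in arf7, against 76.7 FPKM in the control. The summed level of the 21 genes was 5.44-fold the control's in potent and 2.9-fold in arf7, and none of them was at 0.

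The list of genes named RHS, for root hair specific, was written after these values were seen. Of these genes, 18 were above 0 and 2 were members, RHS13 and RHS19. RHS13, which encodes a proline-rich wall protein, rose to 1894 FPKM in potent and 771 FPKM in arf7, against 114 FPKM in the control. RHS19, a class III peroxidase, rose to 1185 FPKM in potent and 469 FPKM in arf7, against 78.8 FPKM in the control. Potent was above arf7 by 2.46-fold in RHS13 and 2.53-fold in RHS19, within the range of XTH14, AGP3 and PRP3. The authors' deposited table has 8 of the 18 RHS genes higher in potent and 4 in arf7, and none lower; their median log2 ratio was 2.26 in potent and 1.40 in arf7.

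The proline-rich extensin-like family supplied 7 members of 14 genes above 0, all 7 listed as higher in both mutants by the authors' deposited table. Extensins are rod-shaped glycoproteins that are cross-linked into the wall. EXT13 (AT5G35190) was the most abundant, with 546 FPKM in potent and 300 FPKM in arf7, against 51.3 FPKM in the control. The least abundant was AT4G08400, with 52.2 FPKM in potent and 35.4 FPKM in arf7, against 4.31 FPKM in the control. EXT6, EXT10, EXT12, AT4G08410 and AT5G06630 lay between them, and all 7 had more in potent than in arf7. These genes share long repeats, so the assignment of reads among them is uncertain: the relative AT1G23720 had 1018 FPKM in potent and was listed at 0 in arf7, against 647 FPKM in the control. Extensin-like members stood beside each other on chromosome 5, where AT5G06630 and EXT10 (AT5G06640) are neighbours on the same strand. AT5G06630 had 136 FPKM in potent and 72.8 FPKM in arf7, against 9.80 FPKM in the control, and EXT10 had 109 FPKM in potent and 61.3 FPKM in arf7, against 9.46 FPKM in the control.

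**Figure D2:**
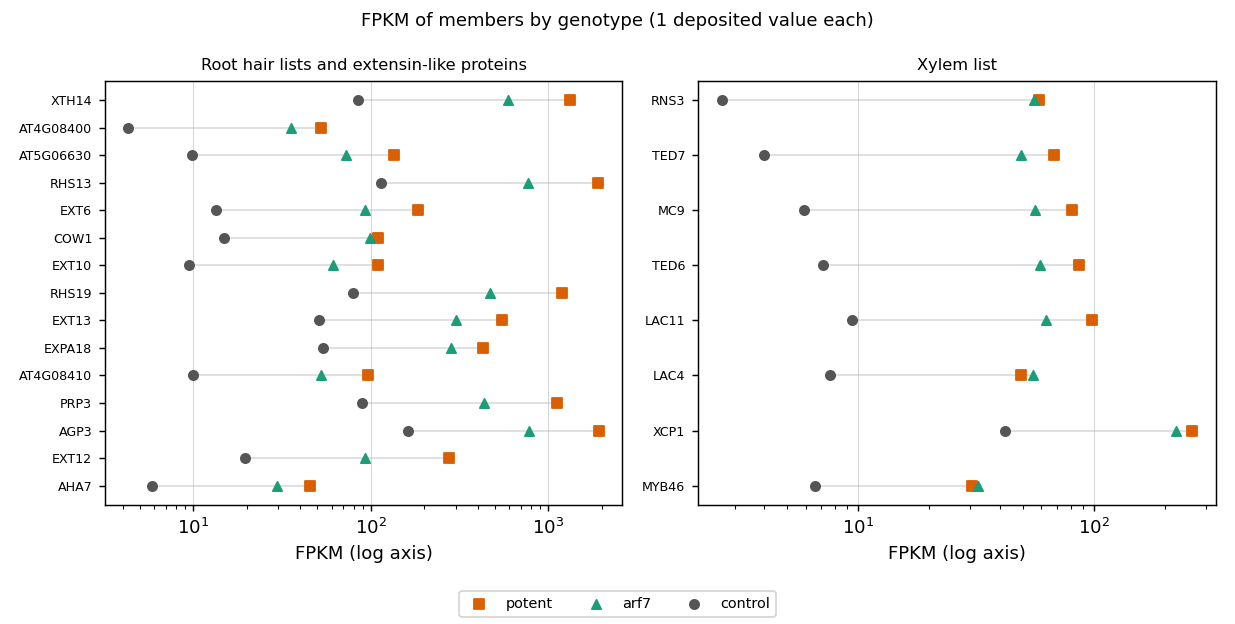
FPKM on a log axis in potent (squares), arf7 (triangles) and the control (circles) for the 15 members of the root hair lists and the extensin-like family (left) and the 8 members of the xylem list (right), 1 deposited value per point. All 15 on the left have potent to the right of arf7, while LAC4 and MYB46 on the right have arf7 above potent.

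Because many of these genes share a tissue, their promoters were searched for the root hair element, a published pattern of hair gene promoters that is bound by bHLH factors of the RSL kind. The window ran from 250 bases before to 50 bases after the annotated start of each gene in build TAIR10.1, and both strands were read. Of 200 members with a window, 6 (3%) held a match, beside 1.01% of 5164 eligible loci and 0.833% of all 30845 windows. The 3 matches in members with known roles in the hair wall are printed here along the gene's strand, with the match in capitals. EXPA18 is on the plus strand at chr1:23331503-23331558, PRP3 on the plus strand at chr3:23182535-23182591 and RHS13 on the minus strand at chr4:993213-993269.

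EXPA18: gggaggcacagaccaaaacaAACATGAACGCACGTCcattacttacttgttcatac
PRP3: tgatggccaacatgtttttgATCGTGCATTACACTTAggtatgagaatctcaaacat
RHS13: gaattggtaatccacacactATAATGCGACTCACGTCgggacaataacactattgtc

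In EXPA18 and RHS13 the element reads along the gene, 24 and 193 bases before the start, while in PRP3 it reads on the other strand, 150 bases before the start. A further match lay in the promoter of RNS3, a xylem gene. A match is a string of letters and not a shown binding site, and its absence from a window says only that these letters are not there.

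Xylem genes were the second group. A vessel element thickens its wall with cellulose, xylan and lignin and then digests its own contents. Of the 23 xylem genes listed, all above 0, 8 were members. Enzymes of the final self-digestion made up 3 of them. XCP1, a cysteine protease of the vessel's vacuole, rose to 261 FPKM in potent and 222 FPKM in arf7, against 42.2 FPKM in the control. MC9, a metacaspase active in dying vessels, had 80.7 FPKM in potent and 56.4 FPKM in arf7, against 5.90 FPKM in the control; the authors' deposited table lists it as higher in potent only. RNS3, a ribonuclease, had 58.4 FPKM in potent and 55.9 FPKM in arf7, against 2.64 FPKM in the control, the highest ratios of the 8, and is in neither list of the authors' deposited table.

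The remaining 5 act in building the secondary wall. TED6 and TED7 are plasma membrane proteins first found in differentiating tracheary elements of Zinnia. TED6 rose to 86.9 FPKM in potent and 59.3 FPKM in arf7, against 7.09 FPKM in the control. TED7, unlisted by the authors' deposited table, had 68.0 FPKM in potent and 49.0 FPKM in arf7, against 4.02 FPKM in the control. LAC4 (IRX12) and LAC11 are laccases, which oxidise lignin monomers in the wall. LAC4 rose to 49.3 FPKM in potent and 55.0 FPKM in arf7, against 7.64 FPKM in the control. LAC11, unlisted, had 97.9 FPKM in potent and 62.9 FPKM in arf7, against 9.46 FPKM in the control. MYB46, a transcription factor that switches on the secondary wall programme, had 30.3 FPKM in potent and 32.2 FPKM in arf7, against 6.58 FPKM in the control, and the authors' deposited table lists it as higher in arf7 only.

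Of the 23 xylem genes, 7 are higher in potent and 9 in arf7 by the authors' deposited table, and none is lower. The list's median log2 ratio was 1.91 in potent and 2.21 in arf7, beside 0.00 over all loci above 0. Potent was above the control in 23 of the 23 genes and arf7 in 22. The summed level of the list was 2.04-fold the control's in potent and 2.18-fold in arf7, with CESA4, a cellulose synthase of the secondary wall, alone supplying 1020 FPKM in potent and 1192 FPKM in arf7, against 852 FPKM in the control. Of the enzymes that make lignin monomers, phenylalanine ammonia-lyase and 4-coumarate:CoA ligase also had members: PAL4 rose to 65.7 FPKM in potent and 44.6 FPKM in arf7, against 7.47 FPKM in the control, and 4CL5 had 54.2 FPKM in potent and 73.9 FPKM in arf7, against 12.3 FPKM in the control. More abundant enzymes of that pathway were not members: PAL1 had 910 FPKM in potent and 1063 FPKM in arf7, against 391 FPKM in the control.

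The promoter windows were also searched for the tracheary element-regulating element, a motif described upstream of genes of dying vessels, again on both strands. It was found in 3 members (1.5%), beside 0.736% of eligible loci and 0.444% of all windows. They were the xylem genes XCP1 and MC9 and the extensin gene EXT12. XCP1 lies on the plus strand at chr4:16810387-16810437, MC9 on the plus strand at chr5:1153657-1153707 and EXT12 on the plus strand at chr4:7783541-7783585; the capitals mark the motif.

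XCP1: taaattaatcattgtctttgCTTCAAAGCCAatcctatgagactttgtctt
MC9: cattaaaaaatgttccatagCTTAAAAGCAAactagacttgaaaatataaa
EXT12: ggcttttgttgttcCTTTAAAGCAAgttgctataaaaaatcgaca

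In each the motif reads along the gene, 64 bases before the start of XCP1, 52 before that of MC9 and 225 before that of EXT12. Auxin response factors bind the hexamer TGTCTC and, more tightly, TGTCGG. The windows of 15% of members held TGTCTC, beside 12.5% of eligible loci and 14.2% of all windows. Those of 5% of members held TGTCGG, beside 6.1% of eligible loci and 5.05% of all windows. At least 1 of them, on either strand, was in 19% of members, 17.9% of eligible loci and 18.6% of all windows, so the members' share was close to the background.

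Transporters were the largest protein class among the members, 22 of 202 (10.9%) beside 2.51% of eligible loci. The amino acid carriers led it. UMAMIT proteins are channels or carriers that let amino acids out of cells, amino acid permeases (AAP) bring them in with protons, and glutamine dumper proteins (GDU) raise amino acid export when overexpressed. Of 32 amino acid transport genes above 0 in the list, 8 were members, and 6 of the 8 are listed as higher in both mutants by the authors' deposited table. AAP2, which moves amino acids from xylem to phloem, rose to 95.8 FPKM in potent and 62.9 FPKM in arf7, against 4.10 FPKM in the control. Its relative AAP4 rose to 55.0 FPKM in potent and 35.9 FPKM in arf7, against 3.2 FPKM in the control. GDU4 had 196 FPKM in potent and 58.7 FPKM in arf7, against 4.38 FPKM in the control, and is listed as higher in potent only by the authors' deposited table.

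Counted by annotated product, which takes in some related genes without a UMAMIT name, the family had 41 genes above 0, 8 eligible and 6 members. Among the 8 eligible loci, AT1G06890 has no UMAMIT name. It had 30.9 FPKM in potent and 38.8 FPKM in arf7, against 102 FPKM in the control, and is listed as lower in both mutants. UMAMIT18 (SIAR1), a bidirectional amino acid transporter, was the most abundant of the 6 and rose to 211 FPKM in potent and 214 FPKM in arf7, against 20.7 FPKM in the control. UMAMIT30 had 97.2 FPKM in potent and 49.3 FPKM in arf7, against 1.58 FPKM in the control. UMAMIT12 had 41.3 FPKM in potent and 22.4 FPKM in arf7, against 0.50 FPKM in the control. It had the largest plain ratios of the 6, while with 1 FPKM added UMAMIT30 had the largest log2 ratios, 5.25 in potent and 4.28 in arf7. The authors' deposited table lists neither UMAMIT30 nor UMAMIT12. The other 3, UMAMIT11, UMAMIT27 and UMAMIT28, rose to between 42.8 and 73.6 FPKM in potent and between 34 and 78.2 FPKM in arf7, against 1.39 to 11.3 FPKM in the control. The amino acid transport list had 13 genes higher in potent and 8 in arf7 in the authors' deposited table, and none lower; its median log2 ratio was 1.58 in potent and 0.96 in arf7. UMAMIT33 went the other way by its values, with 10.0 FPKM in potent and 6.28 FPKM in arf7, against 62.0 FPKM in the control.

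Mineral nutrient carriers were fewer. NRT1.1, the nitrate transporter and sensor, rose to 126 FPKM in potent and 111 FPKM in arf7, against 26.9 FPKM in the control. NRT1.9, a nitrate transporter of the phloem, rose to 71.3 FPKM in potent and 81.6 FPKM in arf7, against 11.9 FPKM in the control. PHO1, which exports phosphate into the xylem, rose to 52.4 FPKM in potent and 43.5 FPKM in arf7, against 3.72 FPKM in the control; the authors' deposited table reports it in an entry joined with another gene, so its value is uncertain. Of 25 nitrogen genes above 0, the authors' deposited table has 6 higher and 1 lower in potent and 3 higher and none lower in arf7. AT3G25190, of the vacuolar iron transporter family, had the second largest potent ratio of any member, with 113 FPKM in potent and 24.6 FPKM in arf7, against 0.403 FPKM in the control, and is not in the authors' deposited table. The tonoplast water channel TIP2;2 (AT4G17340) rose to 981 FPKM in potent and 535 FPKM in arf7, against 122 FPKM in the control.

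**Figure D3:**
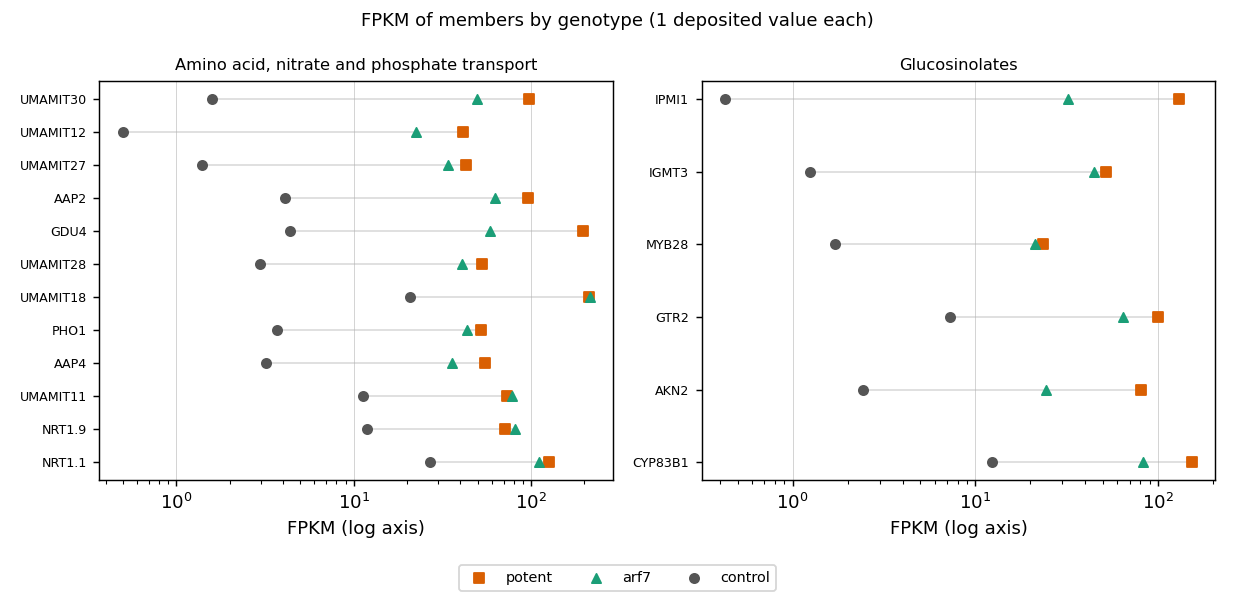
FPKM on a log axis in potent (squares), arf7 (triangles) and the control (circles) for members that carry amino acids, nitrate or phosphate (left) and for the 6 glucosinolate members (right), 1 deposited value per point. The lowest control values are those of UMAMIT12 at 0.50 FPKM on the left and IPMI1 at 0.428 FPKM on the right.

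Glucosinolates are sulfur-rich defence compounds of the cabbage order, made from tryptophan or from methionine lengthened by added carbons. The tryptophan route had 2 members of 21 genes above 0. CYP83B1, the P450 that commits indole-3-acetaldoxime to glucosinolates, rose to 154 FPKM in potent and 83.3 FPKM in arf7, against 12.3 FPKM in the control. IGMT3, which adds a methyl group to the indole ring late in the route, rose to 51.7 FPKM in potent and 44.5 FPKM in arf7, against 1.24 FPKM in the control. Of the 21 genes the authors' deposited table has 10 higher and 1 lower in potent, and 8 higher and 1 lower in arf7; the gene lower in both is CYP81F3, which had 3.5 FPKM in potent and 7.47 FPKM in arf7, against 41.2 FPKM in the control.

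The methionine route, whose list was written after these values were seen, had 4 members of 20 genes above 0. IPMI1 (AT3G58990) encodes a small subunit of the isomerase that lengthens the methionine chain. It had 130 FPKM in potent and 32.1 FPKM in arf7, against 0.428 FPKM in the control. Its plain ratios to the control, the largest of any member, were 303 for potent and 74.9 for arf7, and they rest on a control value below 1 FPKM. With 1 FPKM added, its log2 ratio was 6.52 in potent, still the largest of the members, and 4.53 in arf7, below those of AT5G10580 (4.70) and AT4G00670 (4.64). The gene is not in the authors' deposited table. MYB28, the main transcription factor of the methionine route, rose to 23.5 FPKM in potent and 21.2 FPKM in arf7, against 1.71 FPKM in the control. AKN2, a kinase that makes the sulfate donor, had 81.0 FPKM in potent and 24.5 FPKM in arf7, against 2.42 FPKM in the control. AKN2 is listed as higher in potent only by the authors' deposited table. GTR2, a glucosinolate importer, had 101 FPKM in potent and 64.7 FPKM in arf7, against 7.30 FPKM in the control, and is unlisted. Over the 20 genes the authors' deposited table has 10 higher in potent and 3 in arf7, none lower, with median log2 ratios of 2.71 in potent and 1.08 in arf7. CYP79F1, MYB29 and MYB76 were at 0 in all 3 genotypes.

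Other metabolic members included the cytochromes P450 CYP71A27, CYP705A1 and CYP705A5. CYP71A27 rose to 50.1 FPKM in potent and 28.6 FPKM in arf7, against 1.94 FPKM in the control. CYP705A1 and CYP705A5 are P450s of the gene clusters that make root triterpenes. They were the 2 members of the triterpene list, which had 11 genes above 0 and 3 eligible. Of the 11, the authors' deposited table has 3 higher and 1 lower in potent, and 1 higher and none lower in arf7. CYP705A1 had 104 FPKM in potent and 37.3 FPKM in arf7, against 6.36 FPKM in the control. CYP705A5 rose to 38.0 FPKM in potent and 28.4 FPKM in arf7, against 5.81 FPKM in the control. BGAL4, a beta-galactosidase in the list of genes that respond to sugar starvation, rose to 76.0 FPKM in potent and 47.6 FPKM in arf7, against 2.4 FPKM in the control. In the same list, AT1G20823 (ATL80), a RING protein, had 25.5 FPKM in potent and 27.8 FPKM in arf7, against 2.00 FPKM in the control. The sugar starvation list had 16 genes above 0, 4 eligible and 2 members. Of the 16, the authors' deposited table has 5 higher and none lower in potent, and 3 higher and 1 lower in arf7. The list's median log2 ratio was 1.26 in potent and 0.35 in arf7. SHM1, a serine hydroxymethyltransferase of photorespiration, rose to 37.6 FPKM in potent and 26.4 FPKM in arf7, against 3.96 FPKM in the control. AT3G62000, a methyltransferase, rose to 123 FPKM in potent and 99.3 FPKM in arf7, against 22.2 FPKM in the control.

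Class III peroxidases cross-link wall proteins and lignin or make reactive oxygen in the wall. Counted by annotated product, which leaves out RHS19, the family had 58 genes above 0, 28 eligible and 4 members. Of the 58, the authors' deposited table has 13 higher and 6 lower in potent, and 10 higher and 2 lower in arf7. The most abundant member by the mean of both mutants was AT4G26010. It rose to 1290 FPKM in potent and 872 FPKM in arf7, against 193 FPKM in the control. AT4G26020 overlaps it on the opposite strand. AT5G15180 rose to 262 FPKM in potent and 282 FPKM in arf7, against 63.3 FPKM in the control. AT5G64120 rose to 159 FPKM in potent and 53.6 FPKM in arf7, against 6.65 FPKM in the control. These genes differed in which mutant was higher: AT5G64120 was 2.97-fold higher in potent than in arf7, and AT5G15180 was at 0.929 of its arf7 level in potent.

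Further wall and lipid proteins were members outside the gene lists. XTH31, of the xyloglucan endotransglucosylase family, rose to 145 FPKM in potent and 44.5 FPKM in arf7, against 3.91 FPKM in the control. By annotated product, that family had 25 genes above 0, 15 eligible and 4 members. Of the 25, the authors' deposited table has 7 higher and 4 lower in potent, and 5 higher and 2 lower in arf7. AT2G45220 is named PME17 in the authors' deposited table and is annotated to the plant invertase/pectin methylesterase inhibitor superfamily. It rose to 400 FPKM in potent and 208 FPKM in arf7, against 25.2 FPKM in the control. AT1G08160 is annotated to the late embryogenesis abundant (LEA) hydroxyproline-rich glycoprotein family. It rose to 154 FPKM in potent and 121 FPKM in arf7, against 15.9 FPKM in the control. These 3 genes were all higher in potent than in arf7. The arabinogalactan protein gene AGP19 had 48.8 FPKM in potent and 29.4 FPKM in arf7, against 2.81 FPKM in the control. The laccase gene LAC1 rose to 46.6 FPKM in potent and 49.8 FPKM in arf7, against 5.70 FPKM in the control. AT3G47540, a chitinase, had 21.2 FPKM in potent and 22.4 FPKM in arf7, against 0.891 FPKM in the control. Of these, AGP19 and AT3G47540 are not in the authors' deposited table, and each is overlapped by another annotated gene. The lipid transfer protein gene AT3G53980, higher in potent only by the authors' deposited table, had 167 FPKM in potent and 145 FPKM in arf7, against 10.7 FPKM in the control. AT1G48750, of the same superfamily and unlisted, had 1059 FPKM in potent and 853 FPKM in arf7, against 146.6 FPKM in the control. It is overlapped by AT1G48760. By annotated product, lipid transfer proteins had 49 genes above 0, 22 eligible and 3 members. Of the 49, the authors' deposited table has 5 higher and 4 lower in potent, and 3 higher and 1 lower in arf7.

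Metallothioneins, small cysteine-rich proteins that bind metal ions, gave 3 members of 6 genes, all above 0. MT1A was the most abundant member, with 13728 FPKM in potent and 5421 FPKM in arf7, against 1143 FPKM in the control; it is not in the authors' deposited table. Its close relative MT1C rose to 324 FPKM in potent and 137 FPKM in arf7, against 28.1 FPKM in the control. The ratios to the control were 12.0 in potent and 4.74 in arf7 for MT1A and 11.6 in potent and 4.88 in arf7 for MT1C; near-identical copies may share reads, so the split between the 2 genes is uncertain. MT3 had 109 FPKM in potent and 82.7 FPKM in arf7, against 6.03 FPKM in the control. MT2A differed from these, with 14.3 FPKM in potent and 23.3 FPKM in arf7, against 44.0 FPKM in the control.

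Small secreted and defence proteins were 11 members (5.45%), beside 0.441% of eligible loci, where the class had 23 loci in all. The CAP family, cysteine-rich secreted proteins related to pathogenesis-related protein 1, gave 4 of its 13 genes above 0, of which 5 were eligible. Of the 13, the authors' deposited table has 4 higher and 1 lower in potent, and 3 higher and 1 lower in arf7. The family's median log2 ratio was -0.23 in potent and 0.38 in arf7. The most abundant, AT5G57625, rose to 899 FPKM in potent and 513 FPKM in arf7, against 83.7 FPKM in the control. AT4G25790 had 160 FPKM in potent and 46.5 FPKM in arf7, against 2.86 FPKM in the control. A defensin-like gene, AT3G59930, had 254 FPKM in potent and 64.1 FPKM in arf7, against 4.30 FPKM in the control; like AT4G25790 it is higher in potent only in the authors' deposited table. AT3G18280, a lipid transfer protein, rose to 2989 FPKM in potent and 622 FPKM in arf7, against 147 FPKM in the control, and was the member that favoured potent over arf7 most, by 4.8-fold. GL22, a germin-like protein, had 67.6 FPKM in potent and 58.6 FPKM in arf7, against 4.51 FPKM in the control. AT5G40020, a thaumatin-like protein, had 25.6 FPKM in potent and 31.4 FPKM in arf7, against 2.70 FPKM in the control, and both genes are unlisted. All 3 AWPM-19-like genes above 0 were members, and none is in the authors' deposited table; they had 43.4 to 123 FPKM in potent and 36.7 to 100 FPKM in arf7, against 1.1 to 9.45 FPKM in the control. The one with the lowest control value, AT5G46530, had 43.4 FPKM in potent and 36.7 FPKM in arf7, against 1.1 FPKM in the control.

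**Figure D4:**
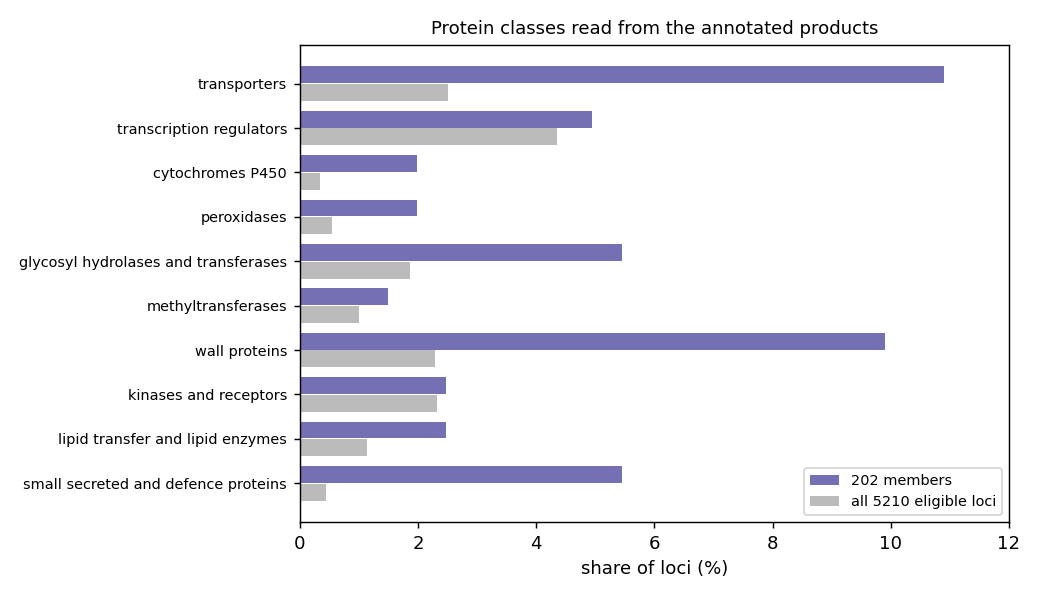
Share of the 202 members (upper bar of each pair) and of all 5210 eligible loci (lower bar) whose annotated product falls in each of 10 protein classes, in percent. Transporters reach 10.9% and wall proteins 9.9% of members, beside 2.51% and 2.28% of eligible loci, while transcription regulators (4.95% and 4.36%) and kinases (2.48% and 2.32%) have similar shares.

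Peptide signals were present among the members. PROPEP1 and PROPEP3 encode precursors of Pep danger peptides and are neighbours on chromosome 5. PROPEP1 had 47.7 FPKM in potent and 21.4 FPKM in arf7, against 2.4 FPKM in the control. PROPEP3 had 37.1 FPKM in potent and 45.8 FPKM in arf7, against 5.82 FPKM in the control. Neither is in the authors' deposited table. CLE5, of the CLAVATA3-related peptides, was far more abundant and rose to 536 FPKM in potent and 436 FPKM in arf7, against 89.1 FPKM in the control. PSK2, a phytosulfokine precursor, had 31.1 FPKM in potent and 21.2 FPKM in arf7, against 4.15 FPKM in the control.

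Counted by words of the annotated product, transcription regulators were 10 members (4.95%), beside 4.36% of eligible loci. This count takes in the RING protein WAVH1. LBD16 was the only member in the auxin response list, of 35 genes above 0 there. It had 49.0 FPKM in potent and 31.2 FPKM in arf7, against 1.92 FPKM in the control, and the authors' deposited table lists it as higher in potent only. The auxin response list had 8 genes higher in potent and 2 in arf7 in the authors' deposited table, none lower, with median log2 ratios of 1.1 in potent and 0.40 in arf7. Outside that list, the family of SAUR-like auxin-responsive proteins gave 2 members of 47 genes above 0, of which 8 were eligible. Of the 47, the authors' deposited table has 4 higher and 4 lower in potent, and 2 higher and 1 lower in arf7. AT2G46690 had 133 FPKM in potent and 69.7 FPKM in arf7, against 9.70 FPKM in the control, and is higher in potent only in the authors' deposited table. AT3G60690 had 21.4 FPKM in potent and 21.8 FPKM in arf7, against 3.42 FPKM in the control, and is unlisted. HAT22, a homeodomain leucine zipper protein, had 51.0 FPKM in potent and 36.5 FPKM in arf7, against 6.23 FPKM in the control. MYB4, a repressor of phenylpropanoid genes, rose to 48.4 FPKM in potent and 42.9 FPKM in arf7, against 9.58 FPKM in the control. WAVH1, a RING protein of root gravitropism, rose to 58.0 FPKM in potent and 53.4 FPKM in arf7, against 9.64 FPKM in the control. Among receptors and kinases, MAPKKK14 rose to 44.0 FPKM in potent and 41.4 FPKM in arf7, against 5.49 FPKM in the control, and the receptor-like kinase gene SRF7 to 120 FPKM in potent and 103 FPKM in arf7, against 22.0 FPKM in the control. Unlisted were HWI1 (PDLP5), a protein that closes plasmodesmata, with 38.2 FPKM in potent and 35.2 FPKM in arf7, against 7.34 FPKM in the control, and the receptor-like kinase gene RUL1, with 35.4 FPKM in potent and 27.6 FPKM in arf7, against 5.65 FPKM in the control; AT5G05170 overlaps RUL1 on the opposite strand.

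Among hormone and stress lists, 1 of 10 eligible loci of the abscisic acid and dehydration list and 1 of 5 of the brassinosteroid list were members, beside 3.88% of all eligible loci. RD29A (LTI78), a classic dehydration and cold gene, rose to 37.3 FPKM in potent and 55.3 FPKM in arf7, against 6.74 FPKM in the control. Of the 18 genes above 0 in its list, the authors' deposited table has 5 higher in potent and 3 in arf7, and none lower. BAT1, an acyltransferase that inactivates brassinosteroids, rose to 23.4 FPKM in potent and 29.9 FPKM in arf7, against 1.89 FPKM in the control. Its list as a whole did not share this direction, with median log2 ratios of -1.09 in potent and -0.61 in arf7. Of its 14 genes above 0, the authors' deposited table has 3 higher and 3 lower in potent, and 1 higher and 2 lower in arf7. The phloem list had 10 genes above 0, of which only PP2-A1, a phloem lectin, was eligible, and it was a member. PP2-A1 had 46.4 FPKM in potent and 24.6 FPKM in arf7, against 1.75 FPKM in the control. Potent was above the control in 7 of the 10 phloem genes and arf7 in 9, with median log2 ratios of 1.05 in potent and 1.30 in arf7. None of the 10 is in the authors' deposited table. The lists for jasmonate, low oxygen, heat shock, sugar transport, suberin, the cell cycle, the root cap, the meristem, green shoot tissue and the endodermis held no member. Few of their genes could have been members: the endodermal list had 10 eligible loci, sugar transport 6, jasmonate and green shoot 4 each, suberin 3, low oxygen, heat shock, the cell cycle and the meristem 1 each, and the root cap 0. At a share of 3.88% of eligible loci, nothing is read from these counts. Of the endodermal genes, CASP1, which scaffolds the Casparian strip, had 4255 FPKM in potent and 3353 FPKM in arf7, against 1375 FPKM in the control.

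Potent was above arf7 in 160 of the 202 members (79.2%), beside 49.1% of eligible loci. The median log2 ratio of potent to arf7 was 0.40 over members and -0.01 over eligible loci. In 34 members (16.8%) potent was at least 2-fold above arf7, beside 3.74% of eligible loci, and in 0 members was arf7 at least 2-fold above potent, beside 2.5% of eligible loci. No deposited comparison or replicate gives an error for this ratio. After AT3G18280 and AT3G25190, the ratio was largest for ATC, a relative of TFL1, with 230 FPKM in potent and 55.0 FPKM in arf7, against 3.66 FPKM in the control. AT3G62040, a haloacid dehalogenase-like hydrolase, and CB5-C, a cytochrome b5, followed at 4.13-fold and 4.08-fold. At the other end, AT4G00670, a remorin, had 32.0 FPKM in potent and 53.3 FPKM in arf7, against 1.18 FPKM in the control, the peroxidase gene AT5G51890 had 110 FPKM in potent and 181 FPKM in arf7, against 18.9 FPKM in the control, and AT1G80120, a LURP-one-like protein, had 39.6 FPKM in potent and 56.8 FPKM in arf7, against 6.04 FPKM in the control. RD29A and 4CL5 were the next in that direction. An annotated gene on the opposite strand overlaps each of AT3G62040, AT4G00670, AT5G51890 and 4CL5, and none of them is in the authors' deposited table.

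The ratio varied among the groups described above. All 15 members of the root hair lists and the extensin-like family had potent above arf7, with a median log2 ratio of 0.89 and a range from 0.14 to 1.57. In the xylem list 6 of 8 did, with a median of 0.35 and a range from -0.16 to 0.63. The amino acid transport members lay between, at a median of 0.49, and the 6 glucosinolate members had a median of 0.75. In the 165 members outside these groups the median was 0.32, with potent above arf7 in 127, and the xylem median lay near that value. By protein class, wall proteins had a median of 0.84 and transcription regulators 0.18. With 1 value per genotype these medians have no error, and the difference between groups was not tested. The RHS and methionine route lists used in these groups were written after the values were seen.

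**Figure D5:**
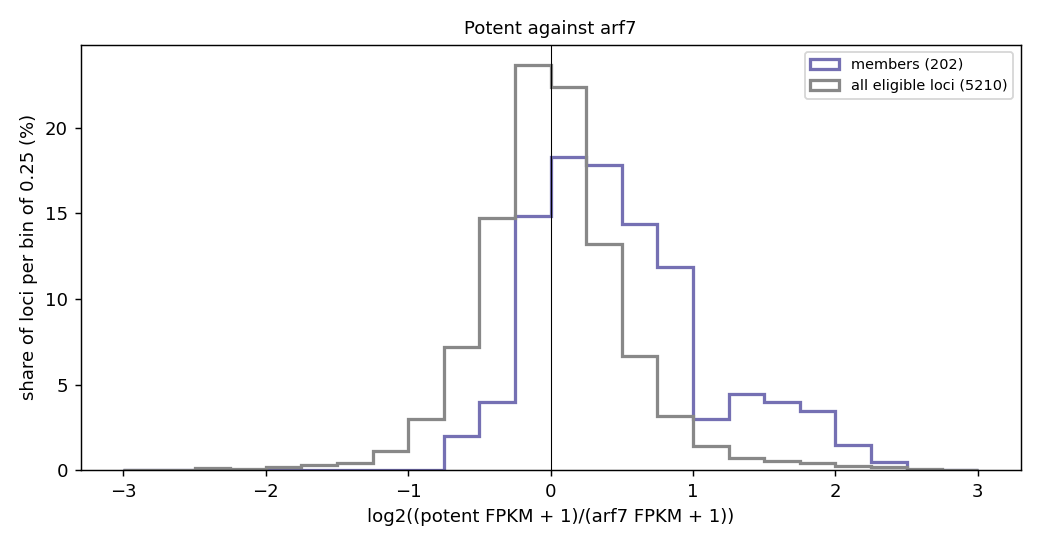
Distribution of the log2 ratio of potent to arf7, with 1 FPKM added to both, for the 202 members and for all 5210 eligible loci, as the share of loci in each bin. Members run from -0.72 to 2.26 and centre on 0.40, while eligible loci centre on -0.01.

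Several features that the rule did not use were recorded. Protein-coding genes made up 94.6% of members and 95.4% of eligible loci; the other 11 members were 4 long noncoding RNAs, 3 small nucleolar RNAs, 2 other noncoding RNAs and 2 chloroplast loci without a match in the reference annotation. Members were shorter, with a median gene length of 1553.5 bases beside 2053.5 bases for eligible loci. Chromosome 4 held 21.3% of members and 15.5% of eligible loci, and chromosome 2 held 11.4% and 15.5%. Of 200 nuclear members, 10 (5%) stood directly beside another member, beside 1.53% of eligible loci. The 5 pairs were AT3G14340 with SRF7, AT5G06630 with EXT10, RAP2.11 with AT5G19800, PROPEP1 with PROPEP3, and AT5G66595 with AT5G09635. The first and the last pair each overlap on opposite strands, so the 2 values of each pair may come from the same reads. In the first pair, AT3G14340 had 82.6 FPKM in potent and 67.6 FPKM in arf7, against 11.0 FPKM in the control. In the last pair, AT5G66595 had 25.1 FPKM in potent and 21.8 FPKM in arf7, against 2.56 FPKM in the control. Its partner AT5G09635 had 44.7 FPKM in potent and 35.6 FPKM in arf7, against 1.62 FPKM in the control.

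The limits of the rule passed through a continuous range. Just inside the ratio limit lay AT4G29905, STR16 and AT4G33560, whose smaller log2 ratio was 2.00 to 2.01. Just outside lay AT5G62720 and WOX13, whose smaller ratio was arf7's, at 2.00 when rounded, and TPR12, whose smaller ratio was potent's, also 2.00 when rounded. WOX13, a homeobox factor, had 59.6 FPKM in potent and 48.4 FPKM in arf7, against 11.4 FPKM in the control. In all, 24 members were within 0.1 above the ratio limit and 32 eligible loci within 0.1 below it. At the level limit, AT5G07080 was just inside with 20.02 FPKM in arf7, followed by FAF1 with 20.8 FPKM and the kinase gene AT4G35030 with 20.9 FPKM, both in arf7. Just outside were TBL33 with 19.98 FPKM in potent, BGLU46 with 19.9 FPKM in arf7 and the peptide transporter gene PTR1 with 19.9 FPKM in potent. A further 214 loci met the ratio condition but had less than 20 FPKM in a mutant, among them BFN1 of the xylem list, a nuclease of dying cells, with 16.5 FPKM in potent and 15.8 FPKM in arf7, against 0.712 FPKM in the control.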

How the data were processed

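The authors deposited 1 combined value per locus for each genotype of 3 samples, in a table without a unit in its header. The values were taken as FPKM because Cufflinks and Cuffdiff stand in the submitters' processing notes, beside TopHat2, TopHat, Bowtie2, Bowtie and the build TAIR10. No version or setting is given in the sources used here. FPKM divides by length and total, so a few abundant transcripts can lower the rest. The authors' deposited comparison table holds q-values and log2 fold changes of each mutant against the control, for listed loci only. Libraries followed a cited full-length cDNA protocol for low inputs, per the labels' protocols; nothing in it marks strand.

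Here, ratios were computed as log2((value + 1)/(value + 1)) with Python 3.11.15, pandas 2.3.3 and numpy 2.4.6, and the rule was tested on simulated data. No test was run, since no file used here holds values per sample. Names, products, lengths, gene order and promoter windows came from the TAIR10.1 reference (30847 loci matched), with coordinates of that build only. The members, the 23 gene lists (428 entries, 406 in the table), families and classes were chosen with earlier results of these data known. After the values were seen, 4 further lists (75 entries) were added. They cover methionine-derived glucosinolates, phenylpropanoid and lignin monomers, RHS genes, and elicitor and phytosulfokine peptides. Genes were named by a written rule: the 10 largest smaller ratios, the 5 highest levels, 5 per direction for potent against arf7, list members, neighbours, loci nearest the limits, the 5 largest unlisted, up to 4 per protein class, and ARF7 and IAA18. One gene that the rule names is not reported here. All other genes named were chosen after their values were seen. Other pseudocounts, levels, ratio limits and scalings were tried.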

Additional observations from a re-analysis of the deposited data

How the results depend on the processing

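The number of members follows the limits of the rule. It was 99 at a level of at least 50 FPKM, 403 with a log2 ratio of at least 1.5 and 52 with a log2 ratio of at least 3. It stayed within 1.5 times 202 with a pseudocount of 0.1 (232), a level of at least 10 FPKM (298), median of ratios scaling (199) and upper quartile scaling (212). The share that the authors' deposited table lists as higher in both mutants was 65.7% at 50 FPKM and 26.9% at a log2 ratio of 3; among protein-coding members, an alternative chosen after seeing the data, it was 51.3%. Potent was above arf7 in 160 members under both scalings. With at most 2 genes between, 26 members had a member nearby, beside 4.53% of eligible loci. In a window of 1000 bases before the start, chosen after seeing the data, TGTCTC or TGTCGG was in 45% of members, 49.3% of eligible loci and 48.1% of all windows. The longer window and the wider gap take in more by construction. No paired analysis was possible because the files hold 1 combined value per genotype, and for the same reason leaving out a replicate and the count tests planned for values per sample were not run. Depth is unknown, and no detection limit is given.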

Other observations

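The rule left out 12 loci that were listed at 0 in the control and had at least 20 FPKM in both mutants. None is protein-coding and none is in the authors' deposited table: 6 are microRNA genes, 5 are small nucleolar RNA genes and 1 is a mitochondrial locus without a match in the reference annotation. MIR164c had 209 FPKM in potent and 42.6 FPKM in arf7, and MIR156c had 57.6 FPKM in potent and 25.8 FPKM in arf7. MIR158a ran the other way between the mutants, with 29.4 FPKM in potent and 62.3 FPKM in arf7. Such short transcripts can be listed at 0 by a failed estimate: 12 loci were at 0 in potent and 11 in arf7 with at least 20 FPKM in both other genotypes, so no fold is given.

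Among members, the chloroplast loci ATCG00200 and ATCG00690 had 183 and 30.1 FPKM in potent and 166 and 31.9 FPKM in arf7. Their control values were 29.0 and 5.09 FPKM. They were 2 of 40 eligible chloroplast loci.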
